A study of Mus musculus with 16 samples.

Results

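The Notch pathway was followed here through 9 genes, which encode the ligands Jag1, Jag2 and Dll1, the receptors Notch1, Notch2, Notch3 and Notch4, the glycosyltransferase Lfng and the target Hes1. They were found by matching gene symbols in the annotation of an Affymetrix mouse array, a rule that uses no signal, although the list itself was drawn up with earlier results of these data known. Of the 9 genes, 8 had at least 1 of 12 probe sets, against 8251 genes with a probe set on the whole array, and Jag1 was not analysed here. Of these, 7 could be tested, among 6922 genes tested: Lfng did not pass the filter on dim probe sets, which asked for a signal above 17.3 on at least 2 arrays. Total RNA of FACS-sorted mouse thymic cells had been hybridised to 16 arrays, 2 for each of 8 groups. Epithelial cells of the thymic medulla (mTEC) from wild-type mice (WT) and from mice lacking Aire (KO) had each been sorted into a fraction with high surface CD80 (CD80hi) and one with low CD80 (CD80lo). A further 4 groups, all of wild-type mice, held mTEC not split by CD80, epithelial cells of the cortex (cTEC), thymic dendritic cells (tDC) and thymic macrophages (tMPh). CD80 is a costimulatory protein that increases as mTEC mature, and Aire is a transcriptional regulator of tissue-restricted genes in mTEC. Strain, age, the part of Aire that was deleted and whether a group's 2 samples are of different animals are not stated, so the p-values measure only the spread between these samples, which may be technical.

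Notch signalling passes between touching cells. A ligand of the Jagged or Delta-like family on one cell binds a Notch receptor on its neighbour, and proteases then free the intracellular part of the receptor, which enters the nucleus, joins the DNA-binding protein RBPJ and activates targets such as the HES and HEY repressors. In the thymus this pathway is best known for committing blood-borne precursors to the T cell lineage when they meet ligand on the stroma. That ligand is chiefly Dll4 on cortical epithelium, and Notch signalling also acts within the epithelium itself. Dll4 had no probe set with its symbol alone and was not analysed here. Of 8 listed ligands, the 3 with a probe set were Jag2, Dll1 and Dlk1. Fringe enzymes such as Lfng add sugars to the receptors and shift their preference between Delta-like and Jagged ligands.

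Promoter sequences are shown for Jag2 and Dll1, the ligands among the 9 genes that had a probe set. Both were lower in CD80hi than in CD80lo mTEC of both genotypes. Each is the window of 250 bases before an annotated start in RefSeq's table for GRCm38.p6, on the gene's strand, 5′ to 3′, with CG dinucleotides in capitals. Dll1 has 2 annotated starts.
Jag2, chr12:112929496-112929745, minus strand: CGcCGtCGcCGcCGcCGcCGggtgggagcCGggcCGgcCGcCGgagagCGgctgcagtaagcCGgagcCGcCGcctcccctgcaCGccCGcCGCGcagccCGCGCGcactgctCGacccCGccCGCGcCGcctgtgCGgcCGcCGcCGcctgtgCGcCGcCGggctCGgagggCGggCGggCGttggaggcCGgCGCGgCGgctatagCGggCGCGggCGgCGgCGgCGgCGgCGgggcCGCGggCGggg
Dll1 start 1, chr17:15375824-15376073, minus strand: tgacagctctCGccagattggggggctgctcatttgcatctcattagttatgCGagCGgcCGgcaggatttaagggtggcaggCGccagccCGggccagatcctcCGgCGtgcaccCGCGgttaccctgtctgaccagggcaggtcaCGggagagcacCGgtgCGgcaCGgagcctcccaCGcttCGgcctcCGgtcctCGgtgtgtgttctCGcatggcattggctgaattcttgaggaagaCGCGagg
Dll1 start 2, chr17:15376933-15377182, minus strand: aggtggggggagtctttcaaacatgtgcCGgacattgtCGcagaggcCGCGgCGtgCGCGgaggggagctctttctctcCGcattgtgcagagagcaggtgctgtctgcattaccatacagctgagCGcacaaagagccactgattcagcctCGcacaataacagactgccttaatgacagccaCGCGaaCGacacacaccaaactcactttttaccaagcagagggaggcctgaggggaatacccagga
The Jag2 window was 87.2% G and C and held 54 CG dinucleotides, a count reached by 0.0152% of the 32851 windows in the table. The Dll1 windows were 64.0% and 56.0% G and C with 21 and 13 CG dinucleotides, against a median window of 52.4% and 6. Windows were matched for 8 of the 9 genes, with no entry for Hes1. The RBPJ core motif, GTGGGAA, searched on both strands, was in none of these 3 windows. Among the 9 windows of the members it occurred once, in Lfng, and among all windows in 5.42%. In the Lfng stretch shown here, chr5:140607212-140607261, plus strand, capitals mark the motif, which lies from 109 to 103 bases before the start.
Lfng: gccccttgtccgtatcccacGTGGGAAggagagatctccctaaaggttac

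Several arrays carried markers of cells other than the labelled one, and Krt5 and Krt14, keratins that define many mTEC, had dim probe sets on every array, with signals of 2.0 to 18.2. Aire gave signals of 1828.6 and 1704.5 in WT CD80hi and of 1589.1 and 1385.3 in KO CD80hi, and since the deleted part is not stated, this probe set does not check the knockout label. Some markers followed the cell type labels: Aire was 1386.0 and 2886.8 in mTEC and at most 113.2 in cTEC. The summed macrophage markers were highest in tMPh and the dendritic cell markers in tDC. Others did not: Cdh1, listed for epithelium, was 53.8 and 65.2 in tDC against 59.6 and 72.6 in cTEC. Fcgr3, listed for macrophages, was 22.5 and 8.9 in tMPh against 19.9 and 19.2 in KO CD80hi. Ctsl, listed for cortical epithelium, was 3006.1 and 4049.2 in WT CD80lo against 1249.3 and 2960.2 in cTEC. The first tMPh array carried epithelial transcripts, with Krt8 at 1212.6 and Krt18 at 732.8 against 172.2 and 46.4 on the second. Thymocyte markers, 11 of 13 listed, summed to 3653 and 6743 in cTEC, 2576 and 2716 in tDC and 6014 and 2727 in tMPh, and to between 306 and 1248 on the mTEC arrays, where the second WT CD80lo array was highest. In the CD80lo fractions, markers of fibroblasts, of pericytes and smooth muscle and of endothelium were brighter than in CD80hi, except that the first KO CD80lo array had an endothelial sum of 294 against 944 on the second. That first array also had a B cell sum of 7425 against 528, mostly Ighm. In bulk samples, fewer cells of a type and less RNA per cell cannot be told apart. Fold changes below are differences of log2(signal + 4.8) between group means with the standard error of the fit, which understates changes of dim genes. "Called" means a Benjamini-Hochberg adjusted p under 0.05 in limma's moderated test over all tested probe sets.

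**Figure D1:**
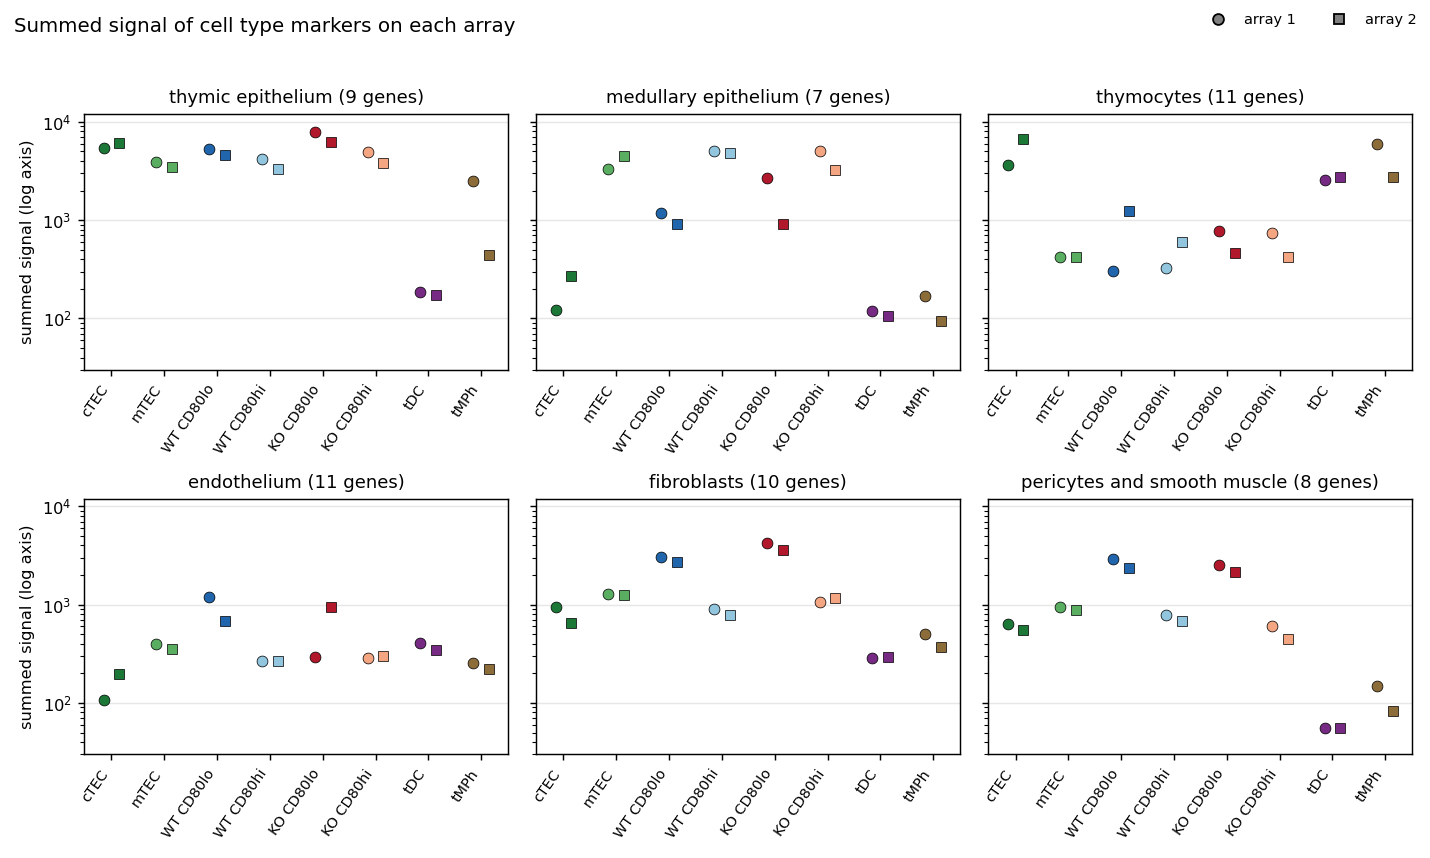
Summed signal of 6 lists of cell type markers (log axis) on each of the 16 arrays, with circles for array 1 and squares for array 2 of a group. The first tMPh array has an epithelial sum of 2477 against 441 on the second, and both CD80lo groups lie above the CD80hi groups in fibroblast and in pericyte and smooth muscle markers.

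Jag2 encodes a Jagged ligand. Its signals were 131.2 and 153.8 in WT CD80lo and 3.4 and 2.3 in WT CD80hi. In the knockout they were 189.4 and 93.3 in CD80lo and 1.8 and 3.3 in CD80hi. The CD80hi arrays of both genotypes were near the bottom of the scale, far from the CD80lo arrays. Jag2 was lower in CD80hi by a log2 fold change of -4.27 ± 0.57 in wild type (limma adjusted p = 0.000181) and of -4.24 ± 0.57 in the knockout (adjusted p = 0.00022). Because CD80hi values were so dim, the size depended on the constant added: in wild type it was -2.98 with 17.3 and -5.23 with 1.

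Among the wild-type cell types, Jag2 signals were 264.0 and 142.2 in cTEC, 23.5 and 25.2 in mTEC, 31.1 and 14.8 in tDC and 24.4 and 2.3 in tMPh. Only cTEC stood apart from the other 3, whose arrays overlapped. Jag2 was lower in mTEC than in cTEC (-2.77 ± 0.57, limma adjusted p = 0.00353), a call that was lost without the first cTEC array (adjusted p = 0.0503). It was higher in cTEC than in tDC (2.91 ± 0.57, adjusted p = 0.00209) and than in tMPh (3.79 ± 0.57, adjusted p = 0.000492). The brighter of the 2 tMPh values came from the array with epithelial keratins, and the part of those cells in it was not tested. Neither mTEC (1.02 ± 0.57, limma adjusted p = 0.247) nor tDC (0.88 ± 0.57, adjusted p = 0.446) was called against tMPh. Without that array the differences were 2.04 (limma adjusted p = 0.012) and 1.90 (adjusted p = 0.0362), but these rest on a single tMPh array at 2.3, below the constant added, which is assumed to vary like the other groups. In order of mean level, the neighbours cTEC, WT CD80lo and KO CD80lo overlapped, and unfractionated mTEC followed them with no overlap.

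Dll1 encodes a Delta-like ligand. It gave 232.7 and 284.5 in WT CD80lo against 55.8 and 70.8 in WT CD80hi. The knockout fractions lay farther apart, at 324.2 and 357.3 in CD80lo and 31.4 and 31.0 in CD80hi. In neither genotype did the fractions overlap. Dll1 was lower in CD80hi by -1.95 ± 0.39 in wild type (limma adjusted p = 0.0035) and by -3.26 ± 0.39 in the knockout (adjusted p = 8.31e-05). The difference between these differences was -1.31 ± 0.55, with a 95% interval of -2.48 to -0.14, and was not called (interaction term in limma, adjusted p = 0.476).

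In the wild-type cell types Dll1 ran in the order cTEC (205.9 and 141.5), mTEC (72.2 and 77.0), tMPh (39.0 and 23.7) and tDC (2.9 and 12.8), with no overlap between neighbours. Over all 8 groups, tMPh and KO CD80hi were the neighbours whose arrays overlapped. Dll1 was higher in cTEC than in tDC (3.91 ± 0.39, limma adjusted p = 8.18e-06) and tMPh (2.31 ± 0.39, adjusted p = 0.00106), and higher in mTEC than in tDC (2.77 ± 0.39, adjusted p = 0.000109). The difference of mTEC from cTEC, -1.15 ± 0.39, was not called (limma adjusted p = 0.0623). It passed in 5 of 27 alternatives, among them the replicate block (adjusted p = 0.0426). Other calls were less stable: mTEC over tMPh (1.17 ± 0.39, limma adjusted p = 0.0435) was lost in 15 of 27 alternatives, up to an adjusted p of 0.235. The call of the lower value in tDC than in tMPh (-1.60 ± 0.39, limma adjusted p = 0.0159) was lost in 5 of 27 alternatives. Among them were the fits without the first tDC array (-1.01) and without the first tMPh array (-1.29). The second Dll1 probe set was dim, at 0.4 to 6.1 on all arrays, and was not tested. Dlk1, a noncanonical relative of these ligands, was higher in mTEC (51.3 and 89.1) than in tDC (20.8 and 26.8), by 1.35 (limma adjusted p = 0.0329), a call lost in 5 of 27 alternatives.

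**Figure D2:**
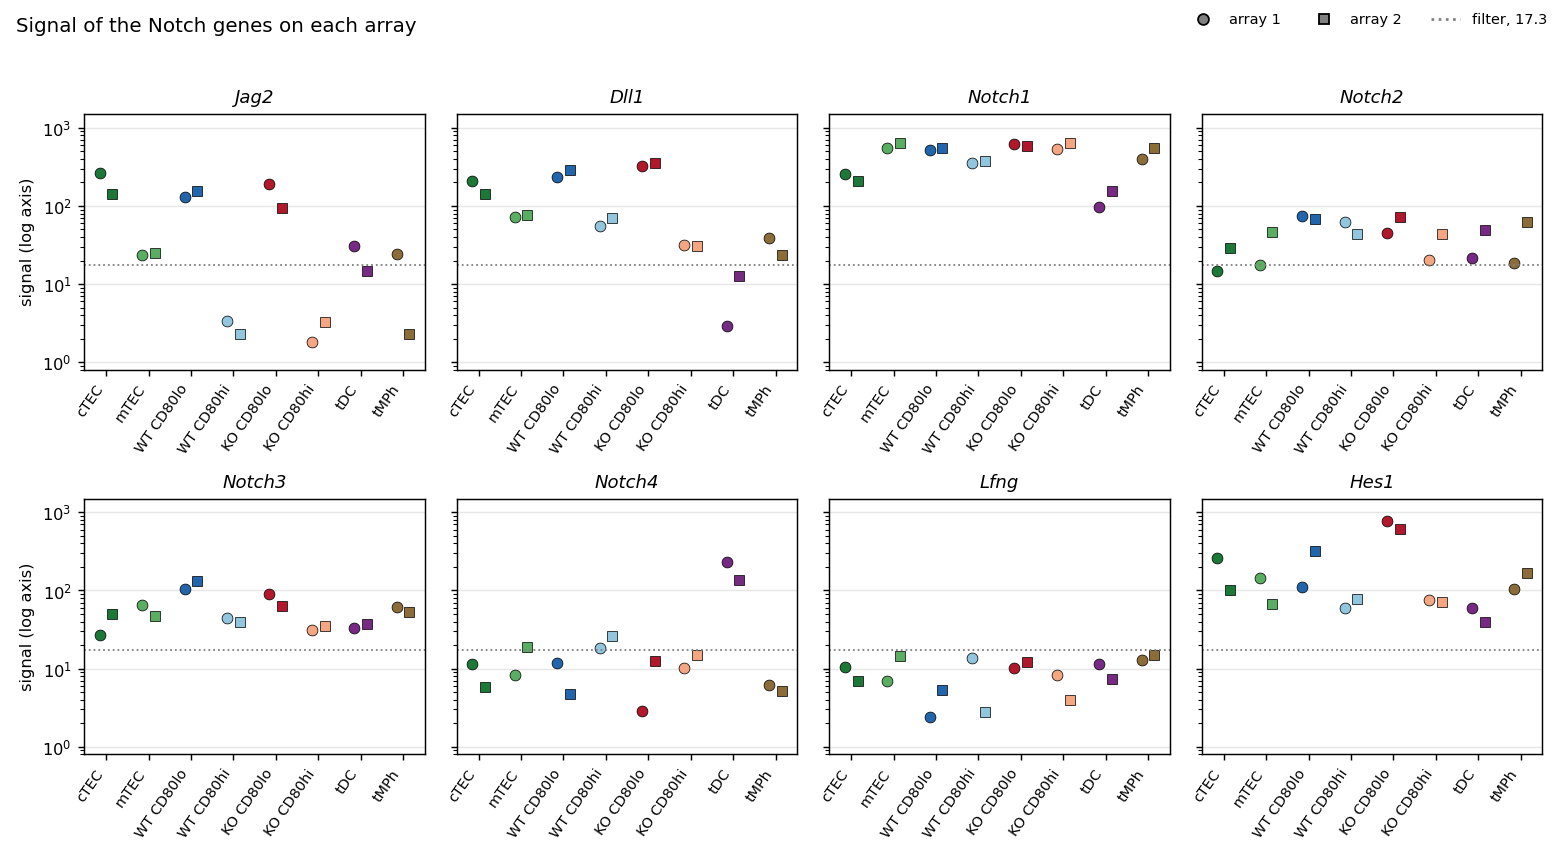
Signal (log axis) of the 8 Notch genes with a probe set, brightest probe set of each, on the 16 arrays (circles array 1, squares array 2), with the filter value of 17.3 dotted. Jag2 and Dll1 are bright in cTEC and both CD80lo groups, Notch4 lies at 228.8 and 134.3 in tDC and at 26.3 or below elsewhere, and Lfng lies below the line on every array.

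Notch1 is the receptor that T cell precursors need, and its signals ran from 95.9 to 639.0 over the 16 arrays. It gave 553.4 and 639.0 in mTEC, 403.8 and 545.4 in tMPh, 253.4 and 206.0 in cTEC and 95.9 and 154.8 in tDC. Both mTEC arrays were above both tMPh arrays, and cTEC and tDC lay lower with no overlap. Notch1 was higher in mTEC than in cTEC (1.36 ± 0.30, limma adjusted p = 0.00579) and than in tDC (2.24 ± 0.30, adjusted p = 7.43e-05), and lower in tDC than in tMPh (-1.90 ± 0.30, adjusted p = 0.000809). The first of these lost its call without the second cTEC array (adjusted p = 0.0573) or the second mTEC array (adjusted p = 0.0578). The lower level in cTEC than in tMPh (-1.02 ± 0.30, limma adjusted p = 0.0409) was lost in 15 of 27 alternatives, up to an adjusted p of 0.28. The difference of cTEC from tDC was 0.88 ± 0.30 and was not called (limma adjusted p = 0.0573), except with the replicate block (adjusted p = 0.0279) and in 5 other alternatives. Thymocyte markers summed to 421 and 425 in mTEC, 6014 and 2727 in tMPh, 3653 and 6743 in cTEC and 2576 and 2716 in tDC, and the part of thymocytes in the Notch1 differences was not tested.

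In the sorted mTEC fractions Notch1 gave 522.3 and 545.6 in WT CD80lo, 355.4 and 376.4 in WT CD80hi, 613.5 and 589.7 in KO CD80lo and 541.3 and 636.7 in KO CD80hi. WT CD80hi was the lowest of these groups, and no difference between fractions or genotypes was called. Unfractionated WT mTEC, at 553.4 and 639.0, lay above both WT fractions, and whether signals shift between unfractionated and fractionated arrays was not tested. Knockout over wild type in CD80hi was 0.68 ± 0.30, with a 95% interval of 0.03 to 1.32 and a limma adjusted p of 0.39. A second Notch1 probe set, whose suffix marks relaxed rules for choosing its probes, ran from 6.9 to 36.7 and was called in no comparison. With the mean of both probe sets the call in tDC against tMPh was lost (adjusted p = 0.101), as it was with only the groups compared (adjusted p = 0.114).

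Notch2 and Notch3 varied least of the 7 tested members, with group means within a log2 range of 1.57 and 1.69 against 2.26 or more for the others. Notch2 ran from 14.7 to 74.6 over the 16 arrays, neighbouring groups overlapped throughout, and neither of its 2 tested probe sets was called in any comparison. Notch3, a receptor best known from pericytes and smooth muscle, gave 104.4 and 133.9 in WT CD80lo and 44.2 and 39.6 in WT CD80hi. In the knockout it gave 90.0 and 64.1 in CD80lo and 31.5 and 35.1 in CD80hi, so the fractions did not overlap in either genotype. It was lower in CD80hi by -1.40 ± 0.33 in wild type (limma adjusted p = 0.0121) and by -1.09 ± 0.33 in the knockout (adjusted p = 0.0466). The wild-type call was lost without either CD80hi array (adjusted p = 0.0652 and 0.0962) and without the second CD80lo array (adjusted p = 0.125), and the knockout call was lost in 17 of 27 alternatives, up to an adjusted p of 0.263. Beside this, 8 of 9 listed pericyte and smooth muscle markers had a probe set, and they summed to 2899 and 2380 in WT CD80lo and 780 and 685 in WT CD80hi, and to 2546 and 2146 against 608 and 451 in the knockout. Of these 8, 3 were lower in CD80hi in each genotype, among them Acta2, and 1 (Cnn1) was higher in CD80hi in wild type, while Pdgfrb, which defines pericytes, was at 22.9 or below on every array. Their part in the Notch3 difference was not tested. In the other 4 cell types Notch3 ran from 27.0 to 64.4 and was not called between any of them.

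Notch4, a receptor best known from endothelium, was bright in one cell type. Its signals were 228.8 and 134.3 in tDC, 11.5 and 5.9 in cTEC, 8.2 and 18.9 in mTEC and 6.1 and 5.1 in tMPh, and from 2.9 to 26.3 in the mTEC fractions. It passed the filter on 5 arrays, and both tDC arrays were above all others. Notch4 was higher in tDC than in mTEC (mTEC over tDC -3.36 ± 0.48, limma adjusted p = 0.000136), than in cTEC (cTEC over tDC -3.77 ± 0.48, adjusted p = 6.83e-05) and than in tMPh (4.12 ± 0.48, adjusted p = 8.16e-05). Endothelial markers, 11 of 12 listed, summed to 412 and 348 in tDC, 394 and 352 in mTEC, 108 and 199 in cTEC and 255 and 224 in tMPh. Of these 11, 2 were higher in tDC than in cTEC (Eng and Vwf), 1 was higher in tDC than in tMPh (Vwf), and 2 were higher in mTEC than in tDC. In tDC, Eng was 167.7 and 143.2 and Vwf 165.9 and 71.3, while Cdh5 was 1.0 and 1.5 and Tie1 0.4 and 6.4. The part of endothelial cells in the Notch4 difference was not tested. A second Notch4 probe set, with the suffix for probes that match similar sequences too, was not tested.

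Lfng signals were between 2.4 and 15.1 on the 16 arrays, below the filter on each, and no fold change is given.

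Hes1 encodes the repressor most used as a readout of Notch signalling, although other pathways also drive it. Its signals were 786.0 and 620.9 in KO CD80lo and 76.5 and 70.4 in KO CD80hi. In wild type they were 109.6 and 318.7 in CD80lo, a wide spread, and 60.0 and 76.9 in CD80hi. Hes1 was lower in CD80hi in the knockout (-3.17 ± 0.53, limma adjusted p = 0.0011). In wild type the difference was -1.40 ± 0.53 and was not called (limma adjusted p = 0.109), though it passed in 3 of 27 alternatives. It did so without the first WT CD80lo array (-2.15) and with only the groups compared (limma adjusted p = 0.0424). It also passed with the number as a replicate block within each set of arrays (adjusted p = 0.0323). Without the second WT CD80lo array it was -0.65 (limma adjusted p = 0.702). KO CD80lo lay above WT CD80lo with no overlap, by 1.87 ± 0.53 with a 95% interval of 0.73 to 3.01, and was not called (limma adjusted p = 0.301). The interaction of genotype and fraction was -1.77 ± 0.75, with an interval of -3.37 to -0.16, and was not called either (limma adjusted p = 0.491). The second WT CD80lo array, with the higher Hes1 signal, also had the higher thymocyte sum, 1248 against 306, and the part of thymocytes in it was not tested.

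In the wild-type cell types Hes1 was 262.1 and 101.4 in cTEC, 104.5 and 166.8 in tMPh, 145.2 and 68.1 in mTEC and 60.0 and 39.8 in tDC. Neighbours in this order overlapped, save that tDC lay below mTEC. The higher level in cTEC than in tDC (1.65 ± 0.53, limma adjusted p = 0.0446) was lost in 14 of 27 alternatives, up to an adjusted p of 0.369 without the first cTEC array.

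**Figure D3:**
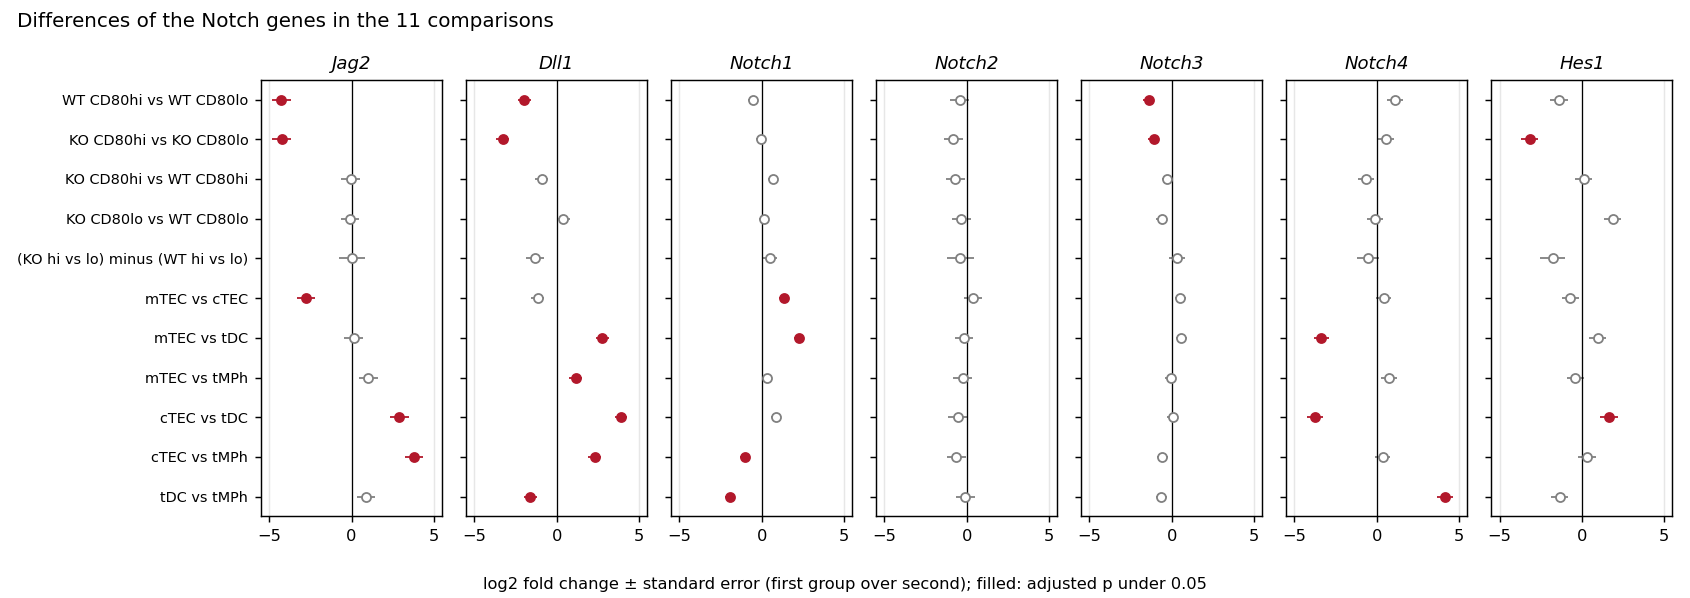
Log2 fold change with its standard error (x axis, first group over second) of the 7 tested Notch genes in the 11 comparisons, filled where the limma adjusted p was under 0.05. Jag2, Dll1 and Notch3 are lower in CD80hi in both genotypes, Hes1 in the knockout, and no gene is filled in the genotype comparisons or the interaction.

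Counted by comparison, 3 of the 7 tested members were called between the wild-type fractions, all lower in CD80hi, where 13.5% of all tested genes were called in either direction. In the knockout 4 of 7 were called, all lower in CD80hi, with 13.7% of all genes. The median log2 fold change of the 7 was -1.40 in wild type and -1.09 in the knockout, and that of all genes was -0.03 in both. Without the first tMPh array and the second WT CD80lo array, an alternative added after the data were seen, the counts were 2 and 3, with Notch3 lost in both (adjusted p = 0.122 and 0.0654).

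No member was called between genotypes. In CD80hi the limma count was 0 of 7, with 2 at an unadjusted p under 0.05 (Dll1, -0.91 ± 0.39, and Notch1), while 3.19% of all genes were called. In CD80lo it was 0 of 7, with 1 at an unadjusted p under 0.05 (Hes1), against 0.332% of all genes. The interaction gave 0 of 7, with 2 at an unadjusted p under 0.05 (Dll1 and Hes1), against 1.23% of all genes. The knockout over wild-type difference of Jag2 was -0.06 ± 0.57 in CD80hi and -0.09 ± 0.57 in CD80lo, with 95% intervals of -1.28 to 1.15 and -1.30 to 1.13.

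Between wild-type cell types, 2 of 7 members were called in mTEC against cTEC (16.4% of all genes), 3 of 7 in mTEC against tDC (26.4%), 1 of 7 in mTEC against tMPh (23.4%) and 4 of 7 in cTEC against tDC (19.4%). A further 3 of 7 were called in cTEC against tMPh (11.9% of all genes) and 3 of 7 in tDC against tMPh (10.4%). The single call in mTEC against tMPh was no larger a share than in all genes. These comparisons share arrays, so their counts do not stand independently of each other.

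Both CD80lo groups, where Jag2 and Dll1 were bright, were also brighter in stromal markers. All 10 fibroblast markers had a probe set and summed to 3075 and 2712 in WT CD80lo against 895 and 791 in WT CD80hi, with 5 lower and 1 higher in CD80hi. In the knockout they summed to 4229 and 3577 against 1055 and 1164, with 4 lower. Endothelial markers summed to 1189 and 682 in WT CD80lo against 270 and 266 in CD80hi, with 4 of 11 lower. In the knockout they summed to 294 and 944 in CD80lo against 286 and 297 in CD80hi, with 2 of 11 lower (Eng and Selp). In cTEC the fibroblast sums were 957 and 648 and the endothelial sums 108 and 199. The summed dendritic cell markers ran the opposite way. Those with a probe set, 11 of 12 listed, summed to 5740 and 6010 in WT CD80hi against 2934 and 2066 in WT CD80lo, with 2 of 11 higher. In the knockout they summed to 9694 and 5240 against 2571 and 1466, with 6 of 11 higher. Fscn1 (1709.0 and 1804.5), Ccl22 (1651.2 and 1977.2) and Irf8 (1205.4 and 921.2) made up much of the WT CD80hi sum. Itgax, at 1187.8 and 1296.0 in tDC, overlapped between fractions. It gave 46.0 and 61.8 in WT CD80hi against 53.8 and 33.7 in WT CD80lo. In the knockout it gave 37.3 and 47.7 against 41.7 and 23.6. Batf3 did not overlap in wild type, at 214.5 and 242.2 in CD80hi against 119.7 and 81.7. All 12 macrophage markers had a probe set. In wild type they summed to 2260 and 1763 in CD80hi against 1084 and 1037 in CD80lo, with 3 higher in CD80hi. In the knockout the sums overlapped, at 1436 and 1234 in CD80hi against 1798 and 1150 in CD80lo, with 2 higher and 1 lower. Cortical epithelium markers, 5 of 9 listed, summed to 3903 and 5381 in WT CD80lo against 2519 and 2803 in WT CD80hi, with 2 lower. In the knockout they overlapped, at 3052 and 4856 against 2192 and 3268, with 2 lower and 1 higher. Ctsl and Cxcl12 (224.1 and 295.2 against 14.5 and 16.6) ran lower in WT CD80hi, and Ly75, Ccl25 and Enpep higher. The part of these cell types in the differences between fractions was not tested.

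The other genes of the pathway numbered 70, of which 38 had a probe set and 36 were tested. Between the wild-type fractions 3 of the 36 were lower in CD80hi and 33 were not called, a share of 8.33% against 13.5% of all genes. These were Hes6 (-2.30, limma adjusted p = 0.00128), a HES family member that antagonises Hes1, Hey1 (-1.95, adjusted p = 0.00297), a direct Notch target, and Nedd4 (-2.20, adjusted p = 0.00336), a ubiquitin ligase. In the knockout 5 were lower and 1 higher, a share of 16.7% against 13.7% of all genes. Hes6 (-2.94, limma adjusted p = 0.000221), Hey1 (-2.22, adjusted p = 0.00124), Nedd4 (-2.03, adjusted p = 0.00599), the growth regulator Myc (-1.83, adjusted p = 0.00132) and the fringe enzyme Rfng (-1.67, adjusted p = 0.0178) were lower. Rbpj, the DNA-binding partner of the receptors, was higher (1.71, adjusted p = 0.0409). The Rbpj call was lost in 11 of 27 alternatives, up to an adjusted p of 0.334. The Rfng call was lost in 3 of 27 alternatives. These were without the second KO CD80hi array (-1.10), without the first KO CD80lo array (-1.17) and with only the groups compared (adjusted p = 0.111). Both Nedd4 calls were lost in 2 of 27 alternatives, among them the mean over its probe sets (adjusted p = 0.195 in wild type and 0.104 in the knockout). Of the 36, none was called between genotypes by limma in CD80hi or CD80lo or in the interaction, with 3, 3 and 2 at an unadjusted p under 0.05.

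In all, 4 of the 9 HES and HEY genes were tested. Hes6 gave 298.8 and 299.0 in WT CD80lo, 52.8 and 61.6 in WT CD80hi, 361.3 and 322.6 in KO CD80lo and 48.4 and 33.7 in KO CD80hi. Hey1 gave 209.3 and 405.8 in WT CD80lo, 62.5 and 82.8 in WT CD80hi, 285.5 and 363.5 in KO CD80lo and 60.8 and 69.9 in KO CD80hi. For both genes the CD80hi arrays lay below the CD80lo arrays in both genotypes. The Hey1 call in wild type was lost without the second WT CD80lo array (adjusted p = 0.0619), and the Hes6 calls held in all 27 alternatives. Counting Hes1, 2 of 4 tested members of this family were lower in CD80hi in wild type, where 13.5% of all genes were called, and 3 of 4 in the knockout, where 13.7% were. Hes2 was at 20.9 or below on every array.

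**Figure D4:**
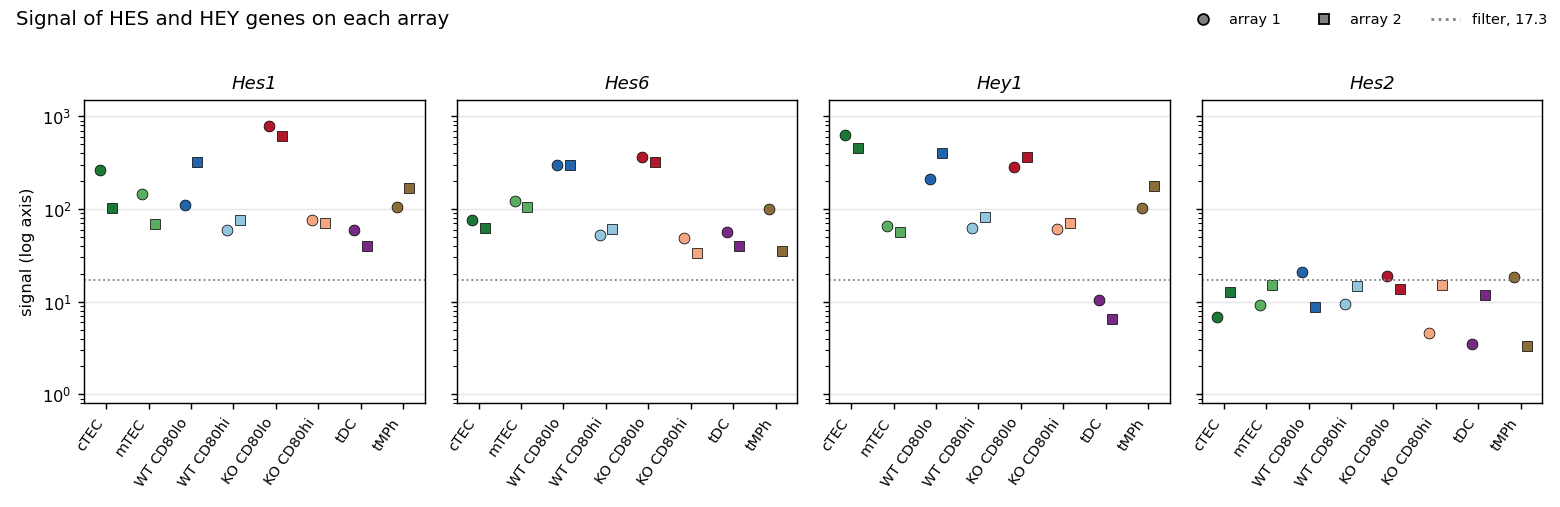
Signal (log axis) of the 4 tested HES and HEY genes on the 16 arrays, with circles for array 1, squares for array 2 and the filter value of 17.3 dotted. Hes6 and Hey1 lie lower in CD80hi than in CD80lo of both genotypes, and Hey1 is brightest in cTEC at 622.0 and 459.3.

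Hey1 ordered the cell types otherwise than Hes6. It gave 622.0 and 459.3 in cTEC, 102.1 and 176.2 in tMPh, 65.5 and 56.6 in mTEC and 10.4 and 6.5 in tDC, with no overlap between neighbours. Hey1 was lower in mTEC than in cTEC (-3.04, limma adjusted p = 7.57e-05), higher in cTEC than in tDC (5.36, adjusted p = 7.5e-07) and tMPh (1.96, adjusted p = 0.00301), and higher in mTEC than in tDC (2.33, adjusted p = 0.000369). Like Jag2 and Dll1, it was thus higher in cTEC than in both tDC and tMPh. Hes6 gave 123.5 and 105.4 in mTEC and 75.5 and 62.3 in cTEC, and was called only in mTEC against tDC (1.20, limma adjusted p = 0.0384) among the 6 comparisons of cell types, a call lost in 10 of 27 alternatives. That of Hey1 in cTEC against tMPh was lost with only the compared groups in the fit (adjusted p = 0.0619).

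Other pathway genes also differed between cell types. In mTEC against cTEC, 1 of the 36 was higher (Psen2, a catalytic subunit of the receptor-cleaving protease, 1.71, limma adjusted p = 0.00523) and 3 were lower (Hey1, Rfng and Nedd4). Against tDC, 6 were higher in mTEC and 1 lower. Dtx1, a ubiquitin ligase and Notch target, was higher (2.16, limma adjusted p = 0.0013) and the cyclin Ccnd1 lower (-1.73, adjusted p = 0.00671). Also higher in mTEC were Hey1, Dlk1, Hes6, Tle1 and Myc. Against tMPh, 2 were higher in mTEC, Ccnd1 (1.70, limma adjusted p = 0.00825) and Numb (1.47, adjusted p = 0.0469), an inhibitor of the receptors. In cTEC against tDC, 7 were higher, namely Hey1, Dtx1 (2.19, limma adjusted p = 0.00158), the co-repressors Tle1 (1.85, adjusted p = 0.00138) and Tle3, Rfng, Myc and Fbxw7 (1.40, adjusted p = 0.00725), which marks Notch for breakdown. The 2 that were lower were Ccnd1 (-3.00, limma adjusted p = 0.000141) and Psen2 (-1.89, adjusted p = 0.00218). In cTEC against tMPh, 4 were higher (Nedd4, Hey1, Tle1 and Tle3) and 1 lower (Psen2, -2.12, limma adjusted p = 0.00143). In tDC against tMPh, 2 were higher (Ccnd1, 3.43, limma adjusted p = 0.000116, and Nedd4) and 3 lower (Hey1, -3.41, adjusted p = 4.81e-05, Dtx1 and Myc). The calls ranged from 2 of the 36 in mTEC against tMPh, where 23.4% of all genes were called, to 9 of the 36 in cTEC against tDC, where 19.4% were. The others were 4 of 36 in mTEC against cTEC (16.4% of all genes), 7 in mTEC against tDC (26.4%), 5 in cTEC against tMPh (11.9%) and 5 in tDC against tMPh (10.4%). Of the calls given here with values, those of Dtx1 in mTEC and in cTEC against tDC held in all 27 alternatives. So did those of Tle1, Fbxw7, Ccnd1 and Psen2 in cTEC against tDC, and of Psen2 in cTEC against tMPh. Those of Ccnd1 and Hey1 in tDC against tMPh held as well. The remaining calls given with values were lost in some: Psen2 in mTEC against cTEC in 2, Ccnd1 in mTEC against tDC in 3 and against tMPh in 4, and Numb in 17. Among calls named without values, Myc was lost in 14 in cTEC against tDC and in 11 in tDC against tMPh. In mTEC against tDC, Myc was lost in 6 and Tle1 in 5. In mTEC against cTEC, Rfng was lost in 8 and Nedd4 in 7. Rfng and Tle3 were each lost in 3 in cTEC against tDC. In cTEC against tMPh, Tle1 and Tle3 were each lost in 5 and Nedd4 in 1. In tDC against tMPh, Nedd4 was lost in 7 and Dtx1 in 6.

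Ccnd1 encodes a cyclin that drives entry into the cell cycle. Its signals were 628.6 and 1102.0 in tDC, 217.5 and 280.4 in mTEC, 50.9 and 102.9 in tMPh and 85.6 and 116.3 in cTEC, with tDC above all of these. Dtx1 lay at 17.6 and 17.0 in tDC, at 83.9 and 110.4 in cTEC and at 95.5 and 92.3 in mTEC. Thus tDC arrays were low in Notch1, Dll1, Hey1 and Dtx1 and high in Notch4 and Ccnd1, each called against both mTEC and cTEC except Notch1 against cTEC.

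As a description over the 16 arrays, which share groups, the genes whose log2 signal ran most like each member were found. The search covered the tested genes other than those with clone names. Dll1 ran most like Osmr (Pearson r = 0.979), a cytokine receptor subunit, and Col4a2 (0.968), a basement membrane collagen. Osmr gave 725.7 and 750.0 in WT CD80lo, 96.5 and 82.2 in WT CD80hi and 1.3 and 5.0 in tDC. Jag2 ran most like Hoxa2 (0.919) and Ctps (0.918), and Notch4 like the lectin-like receptor gene Klrb1b (0.952), at 303.9 and 301.1 in tDC and 43.2 or below elsewhere, and Sema4f (0.937). The leading genes were Rab20 (0.872) for Notch1, Cited2 (0.924) for Notch2, the immunoglobulin segment Igkv1-133 (0.903) for Notch3 and Tiparp (0.834) for Hes1. Between members, over the 8 group means, r was highest for Dll1 and Hes1 (0.83) and for Notch2 and Notch3 (0.76). Next were Jag2 and Dll1 (0.73) and Jag2 and Hes1 (0.70). It was lowest for Notch1 and Notch4 (-0.79) and for Dll1 and Notch4 (-0.71).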

How the data were processed

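Total RNA of sorted thymic cells was measured on 16 arrays, 2 in each of 8 groups taken from the sample titles. The authors deposited 1 linear intensity per probe set and array, for 12488 probe sets. Every array had a 2%-trimmed mean of 100.1. Their software and scaling were not given in the sources used here, and the values were used as deposited. The number of arrays limits the precision, and replicates correlated at a Pearson r of 0.896 to 0.966.

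Before log2, 4.8 was added to each value (the 20th percentile). The filter was a signal above 17.3 (the 40th percentile) on 2 or more arrays, which 9319 probe sets passed and 3103 did not, and 66 control probe sets were left out. In the platform annotation, with controls left out, 10833 probe sets had 1 gene symbol, 396 several and 1193 none. Counted with the control probe sets, the GRCm38.p6 gene table gave current symbols for 10839, and 16 kept theirs. A gene was represented by its brightest tested probe set. All 11 comparisons were contrasts in 1 limma model (limma 3.58.1, R 4.3.3, lmFit and eBayes with trend, 8 residual and 5.97 prior degrees of freedom), 2-sided, Benjamini-Hochberg adjusted over all tested probe sets, threshold 0.05. The steps were tested on simulated data.

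The members and gene lists were chosen with earlier results of these data known. The lists were Notch ligands, receptors, glycosyltransferases, processing enzymes, nuclear co-factors, inhibitors, the HES and HEY family and targets in T cell precursors. All members were named, and of the other pathway genes, per list and comparison, up to 4 called ones with the largest fold changes. Markers of 10 cell types were summed as signals. The 2 genes most alike to each member were taken by Pearson r, with clone names and symbols that begin with mt- left out.

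Alternatives were quantile normalisation, constants of 1 and 17.3, no filter and a filter of 50, eBayes without trend, the mean over probe sets, a replicate block by sample number (over all arrays or per set), a fit on only the compared groups and each array left out. Where that leaves 1 array in a group, it is assumed to vary like the other groups. The fit without the first tMPh and second WT CD80lo array was added after the data were seen. Same-numbered unfractionated arrays deviated together in all 6 pairs of groups (Pearson r 0.279 to 0.526), WT CD80 fractions at 0.17 and KO fractions at 0.517. Across these sets, r was 0.383 for KO CD80hi with tDC and 0.335 with tMPh, and 0.371 and 0.355 for KO CD80lo. The remaining pairs ran from 0.027 to 0.213. The titles number the samples without saying what the numbers share.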

Additional observations from a re-analysis of the deposited data

How the results depend on the processing

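Of the 23 calls of Notch genes, 14 held in all 27 alternatives and 9 were lost in some, while 6 differences that were not called passed in some. With 1 array left out, the Notch genes called in mTEC against cTEC ranged from 1 to 3 and in mTEC against tMPh from 0 to 2. The latter count was 0 under quantile normalisation, with a constant of 1, with no filter and with only the groups compared, and 2 without the first tMPh and second WT CD80lo arrays. With only the groups compared, 1 gene was called in tDC against tMPh. The Jag2 difference of tDC from tMPh, not called, ranged from -0.14 to 1.90 with 1 array left out and was below 0 without the second tMPh array. The cause of these changes was not tested. With the replicate number as a replicate block, the counts were 3 in mTEC against cTEC and 5 in cTEC against tDC, since Dll1 and Notch1 were called, and with the replicate block per set they were 4 between the wild-type fractions and 4 in tDC against tMPh, since Hes1 was called. The replicate block ended no call of a Notch gene. Of 41 calls of other named pathway genes, 16 held in all 27 alternatives. Dim signals limit the fold changes of Jag2, Notch4 and Dll1 where a group lies near or below the constant added.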
